A study of Homo sapiens with 40 samples.

Results

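Glycolysis and hypoxia genes were followed through 10 diffuse large B-cell lymphoma (DLBCL) lines treated with an EZH2 inhibitor. The set held 34 genes, which the rule that gathers them names by symbol. These genes were chosen with earlier results of these data known. Of these, 32 had a probe set with a single gene symbol among 19775 genes on the array, and SLC16A3 and CA9 were not analysed here. The 32 genes had 69 such probe sets, and the 1 with the highest mean signal over 40 arrays stood for each gene. EGLN3 was above the array median on 0 arrays, with signals of 12.17 to 63.27, and was not tested. The 31 tested genes, of 15211 tested in all, comprised 20 glycolytic enzymes or glucose-handling proteins and 11 genes known as hypoxia targets or regulators without a glycolytic role.

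EZH2 is the histone methyltransferase of the Polycomb repressive complex that places the repressive methyl mark on histone H3, and GSK126 inhibits it. Each line was grown for 72 h in 0.1% DMSO, the vehicle, or in 500 nM GSK126, and each of the 20 groups had 2 arrays. The EZH2 mutant lines, with the growth IC50 of GSK126 that the labels give, were Pfeiffer (28 nM), WSU-DLCL2 (134 nM), KARPAS-422 (232 nM), SU-DHL-10 (448 nM), SU-DHL-6 (582 nM), DB (861 nM) and SU-DHL-4 (4828 nM). The EZH2 wild type lines were HT (516 nM), OCI-LY-19 (1019 nM) and Toledo (13786 nM). The growth IC50 is the concentration at which growth is reduced to the midpoint. The labels do not name the EZH2 substitution of each mutant line, do not give the oxygen level of the cultures, and describe no low-oxygen group. All groups were seeded, incubated and lysed by 1 protocol. Both arrays of every group carry the words biological rep in their titles, but nothing says whether the cultures were separate, so p-values measure only the spread between these arrays. The sample descriptions carry a tag of unstated meaning, which is R6 in Toledo, Pfeiffer and KARPAS-422, R8 in OCI-LY-19 and SU-DHL-6, and R7 elsewhere.

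Glycolysis splits glucose into pyruvate in the cytosol. Lymphoma cells are known for running it fast even in air and for exporting the product as lactate. In low oxygen, the hypoxia-inducible factor HIF-1, whose labile subunit is encoded by HIF1A, escapes the prolyl hydroxylases EGLN1 and EGLN3 that mark it for destruction. It then binds short promoter and enhancer elements of most glycolytic genes and of targets such as VEGFA, BNIP3 and P4HA1. MYC drives many of the same glycolytic genes, so the enzymes and the hypoxia-only targets need not move together.

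Signals below are MAS5 signals, the linear summary of a probe set, scaled so that every array has the same trimmed mean. Log2 levels and log2 fold changes (GSK126 minus DMSO) are on the log2(signal + 17.72) scale, which understates changes of dim genes. A gene rose or fell where limma's Benjamini-Hochberg adjusted p over all 15211 genes was below 0.05. Arrays of the same group correlated at 0.982 to 0.989. The B cell markers PAX5, CD79A, CD79B, CD22, PTPRC and CD74 were above the array median on 40 arrays and MS4A1 on 36. The summed signal of the 7 B cell markers ranged from 22776 to 72122 between lines in DMSO and from 24629 to 76819 in GSK126. Markers of other lineages were low in most lines, but CD8A was 12950 in Pfeiffer, CD3D 5162 in KARPAS-422, EPCAM 12130 in Pfeiffer and DCN 14930 in KARPAS-422 in DMSO. In the RNA of whole cultures, fewer cells of a type and less RNA per cell cannot be told apart. With GSK126, of the 7 B cell markers 3 rose in OCI-LY-19 and 3 in WSU-DLCL2, 5 rose in Pfeiffer, 2 rose and 1 fell (CD79A, −0.20) in KARPAS-422, and 1 rose in each of SU-DHL-10, SU-DHL-6 and DB. The stromal markers ACTA2 (Pfeiffer, WSU-DLCL2, KARPAS-422 and SU-DHL-6) and DCN (Pfeiffer, WSU-DLCL2 and KARPAS-422) also rose, by 0.38 to 1.04, and no T cell or NK cell marker was called in any line. Among myeloid and endothelial markers, ITGAM (−1.51) and CSF1R (−1.13) fell in KARPAS-422, LYZ rose in SU-DHL-10 (1.54) and PECAM1 rose in WSU-DLCL2 (0.57). The part of these markers in the results was not tested, and the share of all genes called in each line is given below. The ratio of 3′ to 5′ control probe signal, a sign of RNA degradation, differed between GSK126 and DMSO by −0.08 to 0.05 (log2) for GAPDH.

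In DMSO, the lines differed in the level of 31 of 31 genes by limma's F test, against 84.6% of all tested genes. The mutase PGAM1, used by every cell, varied least. It ranged from a signal of 10830 in DB to 17030 in Pfeiffer, a range of 0.65 on the log2 scale, where the 2 arrays of a line differed by 0.05 at the median. Except for PKM, the other enzymes of the shared steps in the set also spanned narrow ranges, of 0.77 to 0.94 on the log2 scale. The aldolase ALDOA ranged from 10520 (HT) to 20220 (Pfeiffer), the triose isomerase TPI1 from 11660 (WSU-DLCL2) to 19870 (KARPAS-422) and the enolase ENO1 from 10870 (WSU-DLCL2) to 20910 (SU-DHL-10). LDHA, which turns pyruvate into lactate, ranged from 13920 (WSU-DLCL2) to 24140 (Toledo). The pyruvate kinase PKM ranged more widely, from 2999 (WSU-DLCL2) to 10390 (SU-DHL-10), or 1.8 on the log2 scale. Genes of narrower use varied far more between lines. ENO2, the enolase named for neurons, ranged from 4.84 in SU-DHL-10 to 4447 in HT, or 7.63 on the log2 scale, against a median gap between arrays of 0.22. The mitophagy receptor BNIP3 spanned 9.878 in KARPAS-422 to 9713 in SU-DHL-10, or 8.48, against a gap of 0.11. PFKFB4, whose product makes and breaks the sugar phosphate that switches on phosphofructokinase, ranged from 15.34 in Toledo to 2962 in SU-DHL-10, and its relative PFKFB3 from 314.4 in KARPAS-422 to 2977 in DB.

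The other glucose-handling genes lay between these extremes. The glucose transporter SLC2A1 ranged from 436.3 (Toledo) to 843.1 (SU-DHL-10) and SLC2A3 from 18.82 (Pfeiffer) to 369.8 (HT). The hexokinases, which trap glucose in the cell, ranged from 1820 (Toledo) to 5106 (DB) for HK1 and from 914.5 (Pfeiffer) to 5104 (KARPAS-422) for HK2. The phosphofructokinase isoforms peaked in different lines, PFKL in OCI-LY-19 (3484), PFKM in SU-DHL-4 (6610) and PFKP in SU-DHL-10 (5454). Their lowest lines were DB (765.2), Pfeiffer (2710) and SU-DHL-4 (2999). The isomerase GPI ranged from 6270 to 10680, the kinase PGK1 from 10080 to 19130, the aldolase ALDOC from 431.0 to 5169, and PDK1, which blocks pyruvate dehydrogenase, from 754.9 to 7221. Among the hypoxia-only genes, HIF1A ranged from 3360 (Pfeiffer) to 10420 (OCI-LY-19), EGLN1 from 550.6 (SU-DHL-6) to 3558 (Toledo) and the angiogenic factor VEGFA from 690.6 (HT) to 4762 (SU-DHL-10). The peptide hormone gene ADM ranged from 8.806 to 332.0, the mitophagy receptor BNIP3L from 882.2 to 4302 and the histone demethylase KDM3A from 960.8 to 3370. The collagen prolyl hydroxylase subunits ranged from 674.1 to 3696 (P4HA1) and from 17.72 to 378.5 (P4HA2), ANKRD37 from 275.6 to 1236 and the stress-response gene NDRG1 from 47.56 to 588.0. SU-DHL-10 was the highest line for 14 of the 31 genes, and WSU-DLCL2 was the lowest for 6 and the highest for 0.

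**Figure D1:**
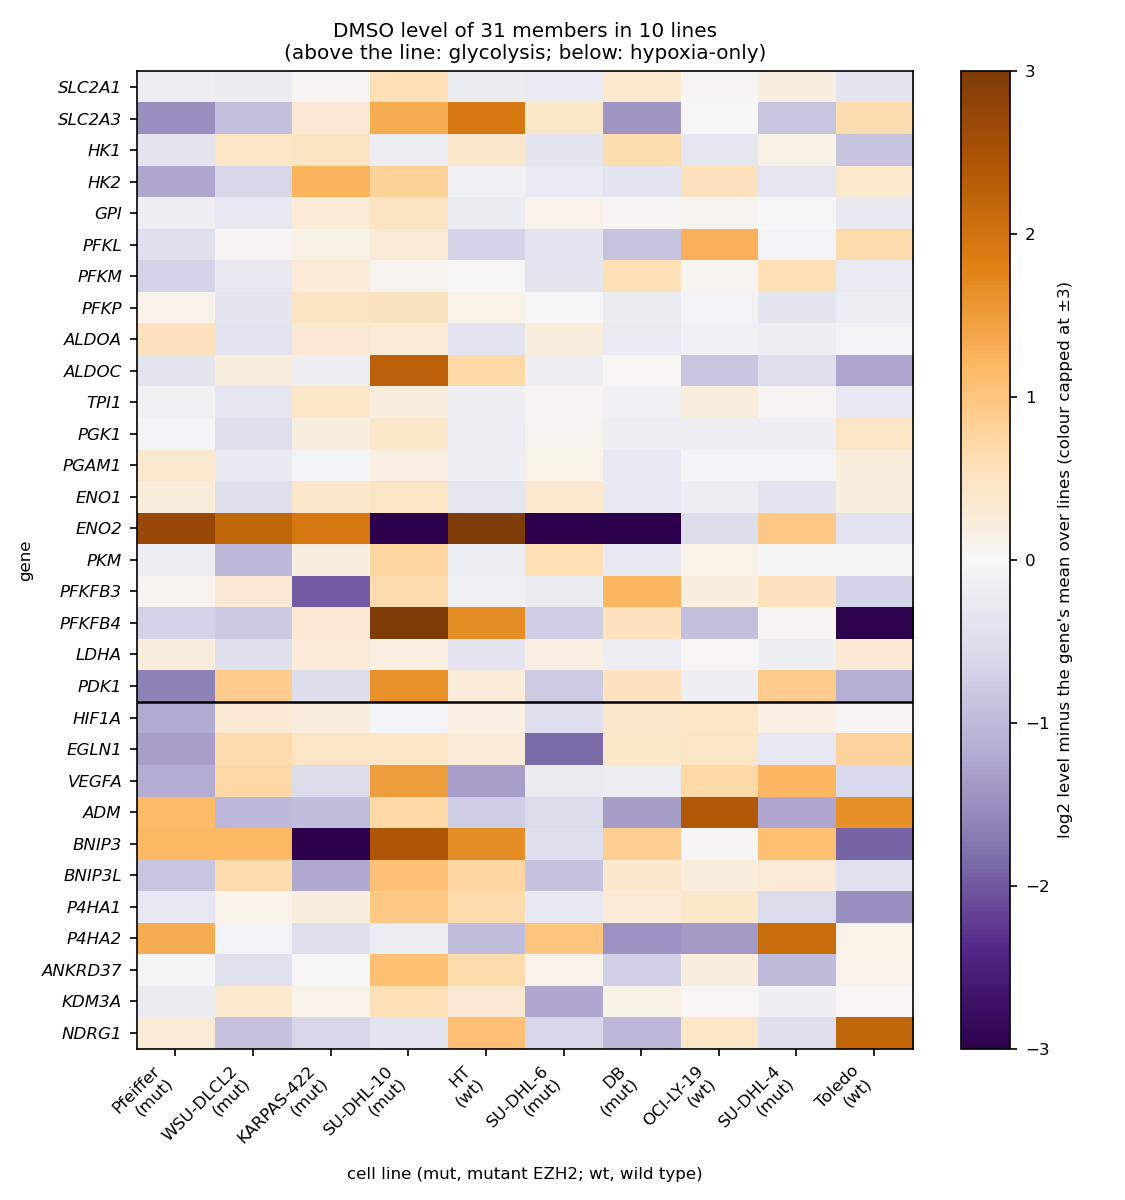
Log2 level of each tested gene (rows, enzymes above the line and hypoxia-only genes below it) in each line (columns) in DMSO, minus the gene's mean over the 10 lines; each cell is the mean of 2 arrays and colours are capped. SU-DHL-10 is the highest line for 14 of 31 genes, and the strongest contrasts are in ENO2 and BNIP3, not in PGAM1, ALDOA or ENO1.

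With GSK126, 78 changes of a gene in a line were called, and their direction depended on the line. Since the genes were chosen with earlier results known, the shares called are descriptions and not an unbiased excess. Pfeiffer had 11 risen and 3 fallen genes (45.2% of the 31, against 24.6% of all tested genes). In WSU-DLCL2 13 rose and 5 fell (58.1% against 26.6%), in KARPAS-422 4 rose and 15 fell (61.3% against 28.9%), and in SU-DHL-10 2 rose and 11 fell (41.9% against 18.2%). These 4 mutant lines thus split, with more rises in Pfeiffer and WSU-DLCL2 and more falls in KARPAS-422 and SU-DHL-10. In SU-DHL-6 5 rose and 2 fell (22.6% against 11%). In HT 2 fell (6.45% against 9.32%), in DB 1 fell (3.23% against 3.12%), in OCI-LY-19 2 fell (6.45% against 2.41%) and in SU-DHL-4 2 rose (6.45% against 2.6%). The shares in HT and DB were near those of all genes. In Toledo limma called 0 genes, with 0 also at an unadjusted p below 0.05, against 0.164% of all genes (0.138% risen and 0.0263% fallen). All 4 arrays of a line gave 2 groups without overlap for 25 of the 31 genes in Pfeiffer (against 60.8% of all genes), 27 in WSU-DLCL2 (62.8%), 24 in KARPAS-422 (60.7%) and 22 in SU-DHL-10 (54.2%). The counts were 13 in HT (51.3%), 22 in SU-DHL-6 (49.2%), 13 in DB (47.3%), 23 in OCI-LY-19 (44.3%), 16 in SU-DHL-4 (44%) and 5 in Toledo (32.8%). The median log2 fold change of the 31 genes was −0.21 in KARPAS-422 and −0.15 in SU-DHL-10, beside 0.01 and 0.06 over all genes, 0.15 in WSU-DLCL2 and 0.20 in Pfeiffer, beside 0.07 in both over all genes, and −0.11 to 0.04 in the other lines.

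The split between rises and falls depended on how arrays were scaled. Setting all arrays to the same median moved the median log2 fold change of all genes by −0.23 in SU-DHL-10, −0.22 in WSU-DLCL2, −0.17 in SU-DHL-6, −0.15 in KARPAS-422 and −0.14 in Pfeiffer and in Toledo. The called genes then were 6 risen and 5 fallen in Pfeiffer, 6 and 10 in WSU-DLCL2, 2 and 18 in KARPAS-422, 0 and 18 in SU-DHL-10, and 2 and 7 in SU-DHL-6. With quantile normalization they were 1 and 2 in HT and 1 and 1 in DB. Of the 78 calls, 47 held under both of these scalings, 22 of 40 among the enzymes and 25 of 38 among the hypoxia-only genes, and 0 became a call in the opposite direction. The small groups also mattered. Leaving out 1 array of the line changed the count from 14 to between 10 and 13 in Pfeiffer, and from 18 to between 11 (DMSO replicate 2) and 15 in WSU-DLCL2. In KARPAS-422 the count of 19 became 10 and 9 when DMSO replicate 1 or 2 was left out and 12 for either GSK126 array. In SU-DHL-10, of 13 called genes, 3 were called without DMSO replicate 1, while leaving out DMSO replicate 2 gave 6, GSK126 replicate 1 gave 7 and GSK126 replicate 2 gave 6. In SU-DHL-6, of 7, leaving out DMSO replicate 1 gave 3 and GSK126 replicate 2 gave 3. In DB 0 were called without DMSO replicate 1, and OCI-LY-19 had 0 without DMSO replicate 2 or GSK126 replicate 2 and 1 without GSK126 replicate 1. SU-DHL-4 had 1 without DMSO replicate 1 and 0 when any other array was left out. In all, 31 of the 78 calls held whichever array of the line was left out, and 30 held there and under both scalings. Those 30 lay in 6 lines and concerned HK1, GPI, PFKP, ALDOA, ALDOC, ENO1, PFKFB3, PFKFB4, PDK1, HIF1A, EGLN1, VEGFA, BNIP3L, P4HA1, P4HA2 and NDRG1.

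**Figure D2:**
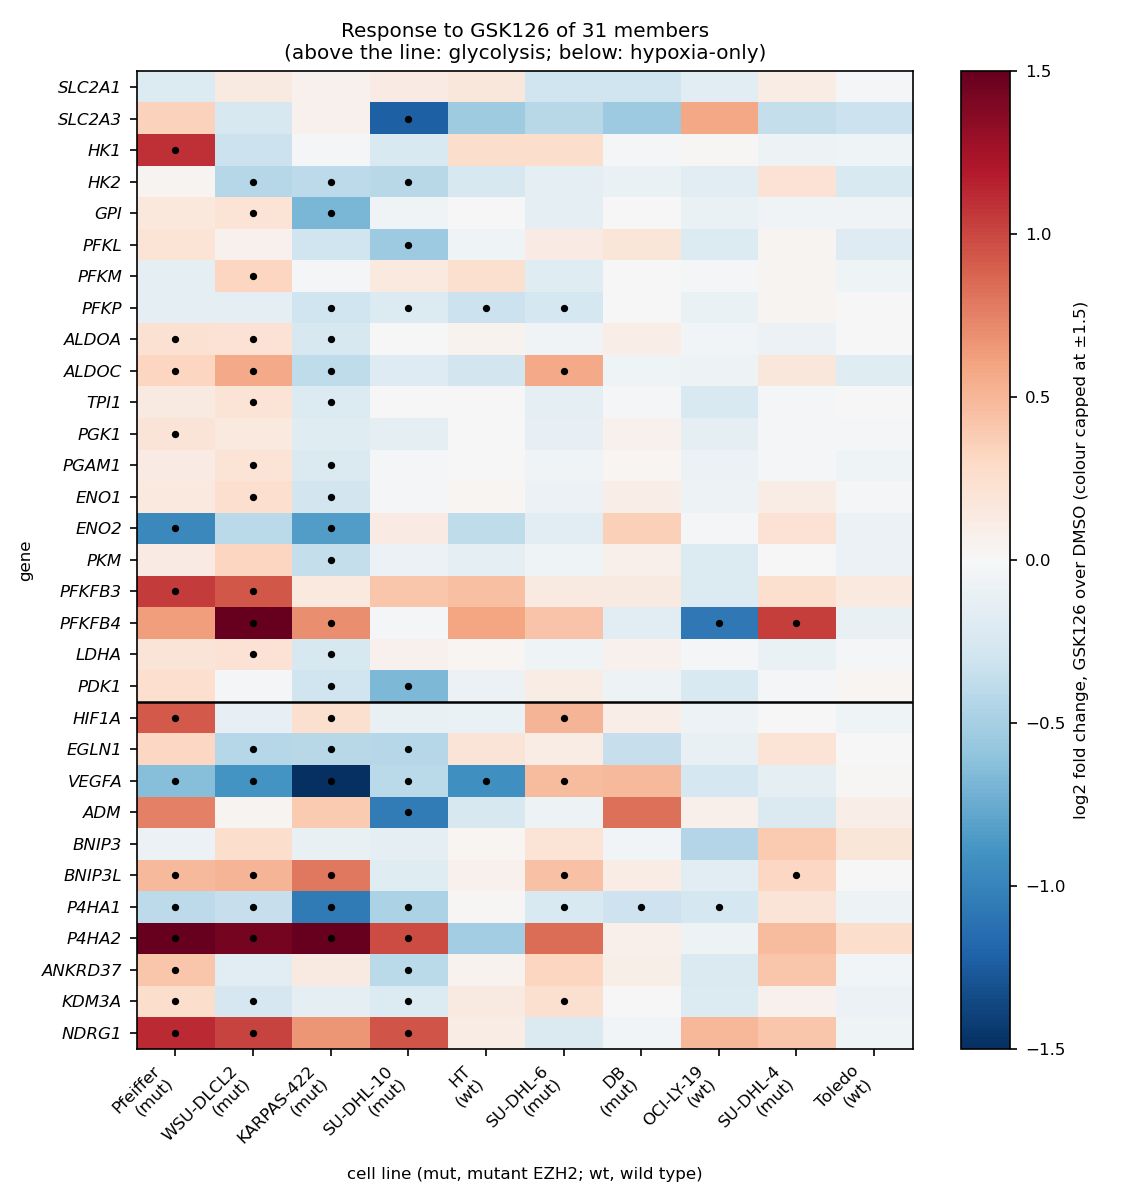
Log2 fold change, GSK126 minus DMSO, of each tested gene (rows, enzymes above the line and hypoxia-only genes below it) in each line (columns); colours are capped, and a dot marks a change called at an adjusted p below 0.05. The dots lie mostly in the 4 leftmost lines, with 15 of 19 called genes lower in KARPAS-422 and 13 of 18 higher in WSU-DLCL2, where the enzyme rises depended on the scaling.

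Promoter sequence was available for 28 of the 32 genes, from RefSeq on GRCh38.p14, with no entry used for SLC2A3, VEGFA, BNIP3L and NDRG1. The core of the hypoxia response element, searched as ACGTG or GCGTG on either strand, was present in the 250 bases before the first listed start in 18 of 28 (64.3%), and in 11763 of 27305 windows of the same length (43.1%). ACGTG alone was in 39.3% against 18.7%, GCGTG in 39.3% against 31.9%, and the E-box CACGTG, which MYC binds and which holds ACGTG on both strands, in 14.3% against 6.49%. The windows of P4HA1, PFKFB4 and ALDOC are printed 5′ to 3′ toward the start on the minus strand, with matches in capitals, because these genes carry the results below. P4HA1 was called in the most lines among genes with a match, and PFKFB4 and ALDOC were taken before KDM3A, also called in 4 lines, for their larger mean absolute change. The windows are P4HA1 (chr10:73096867-73097116, 1 match), PFKFB4 (chr3:48556804-48557053, 1 match; this listed start lies inside the gene's span) and ALDOC (chr17:28576896-28577145, 3 ACGTG and 2 GCGTG).
P4HA1: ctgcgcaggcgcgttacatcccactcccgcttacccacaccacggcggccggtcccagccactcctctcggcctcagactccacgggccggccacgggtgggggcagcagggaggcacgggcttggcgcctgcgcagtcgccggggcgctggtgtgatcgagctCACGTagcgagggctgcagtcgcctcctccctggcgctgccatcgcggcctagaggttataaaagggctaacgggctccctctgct
PFKFB4: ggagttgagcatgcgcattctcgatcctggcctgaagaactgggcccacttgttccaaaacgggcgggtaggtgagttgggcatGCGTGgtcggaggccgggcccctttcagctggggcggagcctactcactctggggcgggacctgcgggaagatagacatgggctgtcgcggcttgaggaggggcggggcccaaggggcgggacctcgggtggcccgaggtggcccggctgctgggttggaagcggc
ALDOC: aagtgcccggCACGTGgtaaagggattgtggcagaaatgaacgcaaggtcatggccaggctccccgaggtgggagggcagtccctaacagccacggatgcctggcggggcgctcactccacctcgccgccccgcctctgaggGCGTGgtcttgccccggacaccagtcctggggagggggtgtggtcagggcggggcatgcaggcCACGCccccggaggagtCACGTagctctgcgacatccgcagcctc
A match is a description of the letters in the window and not a bound site.

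The collagen prolyl hydroxylase P4HA1, which matures collagen in the endoplasmic reticulum, fell in 7 of 10 lines, the most of any gene of the set. In KARPAS-422 its signals were 2275 and 2196 in DMSO and 1084 and 1042 in GSK126 (log2 fold change −1.06 ± 0.06 SE, limma adjusted p = 2.31e-13). In SU-DHL-10 they went from 3732 and 3659 to 2588 and 2718 (−0.48, adjusted p = 3.27e-06), and in Pfeiffer from 1624 and 1447 to 1140 and 1200 (−0.39, adjusted p = 3.98e-05). In WSU-DLCL2 they went from 1966 and 2144 to 1665 and 1578 (−0.34, adjusted p = 0.000187). Both GSK126 arrays lay below both DMSO arrays in each of these lines. These 4 falls held whichever array was left out and under both scalings. P4HA1 also fell in DB, from 2401 and 2316 to 1914 and 1880 (−0.31, adjusted p = 0.00343, and −0.29 with adjusted p = 0.0613 without DMSO replicate 1). Those DB arrays did not overlap. It fell in OCI-LY-19, from 2476 and 2623 to 2122 and 2131 (−0.26, adjusted p = 0.0235, not called without DMSO replicate 2, GSK126 replicate 1 or GSK126 replicate 2). It fell in SU-DHL-6, from 1534 and 1572 to 1314 and 1329 (−0.23, adjusted p = 0.0185, lost whichever of the 4 arrays was left out). There too the groups did not overlap. HT, SU-DHL-4 and Toledo lay at 0.02, 0.19 and −0.08 and did not pass. A second P4HA1 probe set was below the array median on 40 arrays. The mean of both was called in none of the 7 lines and lay between −0.70 in SU-DHL-6 and 0.13 in WSU-DLCL2 and OCI-LY-19, with −0.48 in KARPAS-422 and 0.06 in SU-DHL-10. With arrays at equal medians the calls in DB (−0.27) and OCI-LY-19 (−0.33) were also lost.

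P4HA2, the paralogous subunit of the same enzyme, moved the other way in the lines where P4HA1 fell furthest. In KARPAS-422 its signals rose from 52.63 and 46.24 to 840.4 and 768.3 (3.61 ± 0.34, adjusted p = 1.67e-09). In Pfeiffer they rose from 194.6 and 235.2 to 766.1 and 671.3 (1.66 ± 0.34, adjusted p = 0.000424), and in WSU-DLCL2 from 55.77 and 89.36 to 247.4 and 198.6 (1.43, adjusted p = 0.00176). The groups did not overlap in these lines, and the calls held whichever array was left out and under both scalings. In SU-DHL-10 the signals were 66.67 and 60.25 against 169.4 and 118.6 (0.98, adjusted p = 0.0421), a call lost whichever of the 4 arrays was left out, with fold changes of 0.75 to 1.21. Of the other lines, SU-DHL-6 lay at 0.84 and SU-DHL-4 at 0.48 without passing, DB at 0.08, OCI-LY-19 at −0.08, Toledo at 0.26 and HT at −0.52. P4HA1 and P4HA2 were thus called in opposite directions in Pfeiffer, WSU-DLCL2, KARPAS-422 and SU-DHL-10. The P4HA2 calls depended in part on the probe set. Another P4HA2 probe set, above the array median on 6 arrays, rose in WSU-DLCL2, KARPAS-422 and SU-DHL-6 in a fit of all probe sets. It was not called in Pfeiffer or SU-DHL-10. The remaining P4HA2 probe set was above the array median on 0 arrays and was called in no line.

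VEGFA, the secreted factor that recruits blood vessels, fell in 5 lines and rose in 1. Beside the fall in KARPAS-422, from 1222 and 1083 to 384.9 and 320.2 (−1.66, adjusted p = 4.72e-10), it fell in WSU-DLCL2 from 2815 and 2740 to 1538 and 1420 (−0.90, adjusted p = 2.19e-05). In Pfeiffer it fell from 772.7 and 709.6 to 489.2 and 450.1 (−0.64, adjusted p = 0.00144). HT was the wild type line with a fall, from 886.5 and 494.7 to 347.5 and 336.8 (−0.92, adjusted p = 6.66e-05), although its DMSO arrays lay far apart. These 4 calls held whichever array was left out and under both scalings. In SU-DHL-10 the signals were 4744 and 4780 against 3702 and 3445 (−0.41, adjusted p = 0.047, lost whichever of the 4 arrays was left out). SU-DHL-6 went the other way, from 1280 and 1632 to 1902 and 2135 (0.47, adjusted p = 0.0327). That rise was lost without DMSO replicate 1 (0.30), GSK126 replicate 1 (0.56) or GSK126 replicate 2 (0.39). DB lay at 0.49, OCI-LY-19 at −0.26, SU-DHL-4 at −0.15 and Toledo at 0.02. The groups overlapped in none of the 6 lines with a call. In a fit of all probe sets, every other VEGFA probe set fell in WSU-DLCL2 and in SU-DHL-10, and some but not all of them fell in KARPAS-422 and HT. No other VEGFA probe set was called in SU-DHL-6 or in Pfeiffer, where 1 lay at 0.35, above 0.

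BNIP3L, which tags mitochondria for removal and is induced by hypoxia, rose in 5 mutant lines and fell in none of the 10 at the deposited scaling. In SU-DHL-10 it lay at −0.18 without passing, but with arrays at equal medians it fell there (−0.43, limma adjusted p = 0.00176). In KARPAS-422 it rose from 866.1 and 898.4 to 1646 and 1434 (0.79, adjusted p = 1.56e-08), in WSU-DLCL2 from 3116 and 3395 to 4662 and 4642 (0.51, adjusted p = 2.15e-05) and in Pfeiffer from 1107 and 1154 to 1479 and 1726 (0.49, adjusted p = 4.31e-05). In SU-DHL-6 it rose from 1062 and 1137 to 1379 and 1635 (0.44, adjusted p = 0.000463), a call lost with arrays at equal medians (0.26) and with that line fitted alone. In SU-DHL-4 it went from 2656 and 2391 to 3064 and 3206 (0.31, adjusted p = 0.0341, lost without DMSO replicate 2, GSK126 replicate 1 or GSK126 replicate 2). GSK126 arrays were the higher in each of these lines, with no overlap. KARPAS-422, Pfeiffer and WSU-DLCL2 therefore had BNIP3L higher and VEGFA and P4HA1 lower with GSK126. A second BNIP3L probe set rose in 6 lines. BNIP3, its close relative, was called in 0 lines (limma), with fold changes of −0.44 to 0.39. In KARPAS-422 its signals were 5.784 and 13.97 in DMSO and 15.43 and 1.667 in GSK126, but its other probe set rose there (0.73 ± 0.15, adjusted p = 0.000437 in a fit of all probe sets). These signals lay under every array median (58.9 to 88.7). Each of the 2 BNIP3 probe sets was above the array median on 36 arrays, and they correlated at 0.99, so that rise may be one of background.

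Of the regulators of the pathway, HIF1A rose in 3 lines and EGLN1 fell in 3. HIF1A rose in Pfeiffer, from 3466 and 3255 to 6079 and 6670 (0.92 ± 0.07, adjusted p = 1.29e-10), and in SU-DHL-6, from 5506 and 5465 to 7609 and 8088 (0.51, adjusted p = 1.12e-05). Pfeiffer was the line with the lowest HIF1A in DMSO. HIF1A also rose in KARPAS-422 (0.24, adjusted p = 0.0113), a call lost with arrays at equal medians (0.07) and kept only when GSK126 replicate 1 was the array left out. HIF1A messenger RNA is not the quantity that oxygen controls, which is the stability of the protein. EGLN1, the main hydroxylase of HIF-1, fell from 3264 and 3235 to 2404 and 2403 in WSU-DLCL2 (−0.43 ± 0.12, adjusted p = 0.00619), a call that held whichever array was left out and under both scalings. Its other calls were −0.42 in KARPAS-422, from 2675 and 3028 to 2523 and 1776 (adjusted p = 0.00659), and −0.43 in SU-DHL-10, from 2980 and 2569 to 2044 and 2052 (adjusted p = 0.00958). The first was lost without replicate 2 of either treatment (−0.67 to −0.17 over the 4 arrays left out), and the second without replicate 1 of either (−0.54 to −0.32).

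Of the remaining hypoxia-only genes, NDRG1 rose in 3 lines. In Pfeiffer its signals rose from 158.7 and 128.5 to 345.1 and 318.6 (1.12 ± 0.27, adjusted p = 0.00236). In WSU-DLCL2 they went from 58.12 and 49.19 to 107.6 and 146.0 (1.01, adjusted p = 0.00532) and in SU-DHL-10 from 97.21 and 71.17 to 154.4 and 201.2 (0.94, adjusted p = 0.0135). The calls in WSU-DLCL2 and SU-DHL-10 were lost when replicate 2 of DMSO (0.92 and 0.76) or of GSK126 (0.81 and 0.77) was left out. NDRG1 lay at 0.66 in KARPAS-422, 0.50 in OCI-LY-19, 0.42 in SU-DHL-4, 0.11 in HT and −0.22 in SU-DHL-6 without passing. KDM3A, which removes methyl groups from histone H3, rose in Pfeiffer (0.26 ± 0.07) and SU-DHL-6 (0.24) and fell in WSU-DLCL2 (−0.25) and SU-DHL-10 (−0.21). ANKRD37, an ankyrin repeat gene induced by HIF-1, rose in Pfeiffer (0.42 ± 0.12) and fell in SU-DHL-10 (−0.40). ADM fell in SU-DHL-10 alone of the 10 lines tested, from 115.8 and 67.47 to 43.63 and 25.55 (−1.05 ± 0.34, adjusted p = 0.0296). The ADM call was lost without DMSO replicate 1 or GSK126 replicate 2 (−1.37 to −0.73). In Pfeiffer KDM3A (0.15 to 0.37) and ANKRD37 (0.27 to 0.58) were lost without replicate 1 of either treatment, and the mean of all ANKRD37 probe sets lay at −0.03. KDM3A was lost in WSU-DLCL2 without DMSO replicate 1 (−0.28 to −0.21) and in SU-DHL-6 without DMSO replicate 1 or GSK126 replicate 2 (0.18 to 0.30). In SU-DHL-10 KDM3A was lost whichever array was left out (−0.23 to −0.18), and ANKRD37 held only without GSK126 replicate 1 (−0.62 to −0.18). The mean of all KDM3A probe sets lay at 0.11 in WSU-DLCL2 and 0.02 in SU-DHL-10.

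**Figure D3:**
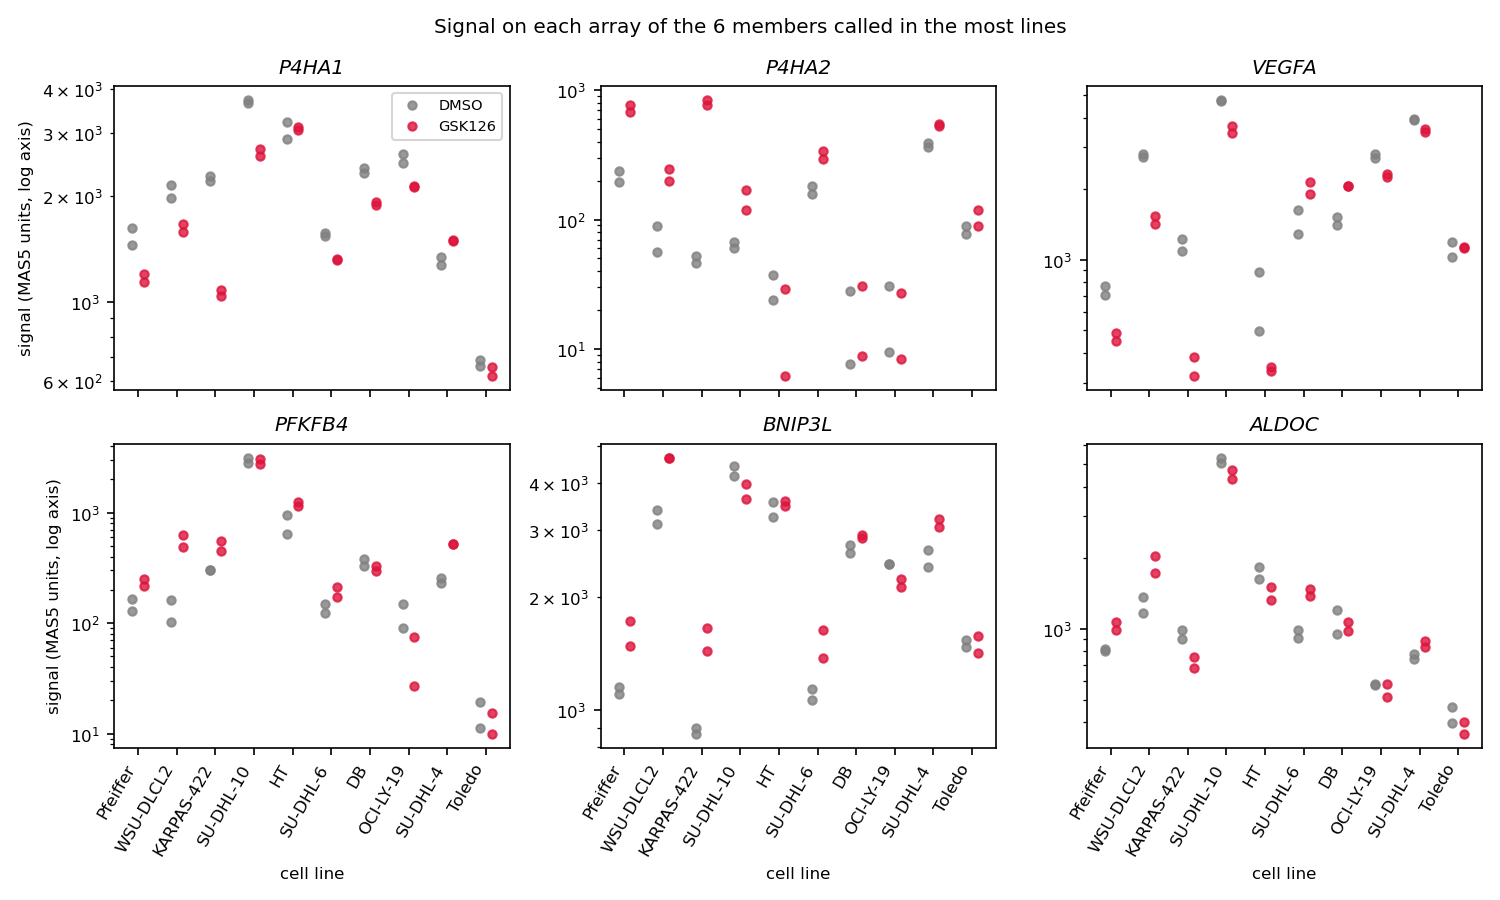
MAS5 signal (log axis) on each of the 4 arrays of every line for P4HA1, P4HA2, VEGFA, PFKFB4, BNIP3L and ALDOC; grey points are DMSO arrays and red points GSK126 arrays. In KARPAS-422 the GSK126 points of P4HA1 (1084 and 1042) and VEGFA (384.9 and 320.2) lie below both DMSO points, and those of P4HA2 (840.4 and 768.3) and BNIP3L (1646 and 1434) above them.

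At the entry of glucose, each transporter was called in at most 1 line. SLC2A1, the basal transporter, was called in 0 lines (limma), with fold changes of −0.30 to 0.17. SLC2A3, a high-affinity transporter, fell in SU-DHL-10 from 246.0 and 228.9 to 93.23 and 90.97 (−1.22 ± 0.32, adjusted p = 0.00808, and −1.17 with adjusted p = 0.0597 without DMSO replicate 1). The hexokinase HK1 rose in Pfeiffer, from 2606 and 2487 to 5656 and 5223 (1.09 ± 0.20, adjusted p = 0.000131). Both GSK126 arrays lay above both DMSO arrays there, and in the other lines HK1 lay between −0.32 (WSU-DLCL2) and 0.26. HK2, the inducible hexokinase, fell in WSU-DLCL2 (1418 and 1409 to 1060 and 1033, −0.43 ± 0.14, adjusted p = 0.0231). It also fell in KARPAS-422 (5014 and 5193 to 4095 and 3716, −0.39, adjusted p = 0.0386) and in SU-DHL-10 (3984 and 3697 to 2596 and 3165, −0.42, adjusted p = 0.0364). The first 2 of these HK2 calls were lost whichever array was left out (−0.45 to −0.41 and −0.46 to −0.32), and that in SU-DHL-10 held only without GSK126 replicate 2 (−0.56 to −0.28). The HK2 falls also depended on the probe set. Another HK2 probe set rose in WSU-DLCL2 and SU-DHL-10, and the mean of all of them lay at 0.19 in WSU-DLCL2 and 0.23 in SU-DHL-10.

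The largest rise of a glycolytic gene was that of PFKFB4, at the control of phosphofructokinase. PFKFB4 rose in WSU-DLCL2 from 161.6 and 103.3 to 624.6 and 489.7 (1.95 ± 0.25, adjusted p = 8.88e-07). PFKFB3 rose in Pfeiffer from 1436 and 1246 to 2784 and 2794 (1.05 ± 0.23, adjusted p = 0.00101) and in WSU-DLCL2 from 1646 and 1570 to 3061 and 3100 (0.93, adjusted p = 0.00282). These 3 rises held whichever array was left out and under both scalings. The other PFKFB4 calls did not hold whichever array was left out. They were SU-DHL-4, 256.5 and 231.3 to 515.4 and 524.7 (1.04, adjusted p = 0.0184), and KARPAS-422, 300.0 and 302.5 to 555.7 and 450.2 (0.70, adjusted p = 0.0371), both lost whichever of the 4 arrays was left out. Their fold changes then were 0.97 to 1.11 in SU-DHL-4 and 0.55 to 0.85 in KARPAS-422. In OCI-LY-19 PFKFB4 went from 91.02 and 147.8 to 74.33 and 26.88 (−1.07, adjusted p = 0.0165), and was not called without DMSO replicate 2 (−0.76) or GSK126 replicate 2 (−0.54). Another PFKFB4 probe set lay at −0.20 in KARPAS-422. PFKFB4 lay at 0.63 in Pfeiffer, 0.59 in HT, 0.43 in SU-DHL-6, −0.03 in SU-DHL-10, −0.11 in Toledo and −0.16 in DB without passing. Of the phosphofructokinase isoforms themselves, PFKP fell in 4 lines, KARPAS-422 (5727 and 5109 to 4172 and 4617, −0.30 ± 0.06), HT (4369 and 4093 to 3381 and 3398, −0.32), SU-DHL-6 (3849 and 3777 to 3250 and 3109, −0.26) and SU-DHL-10 (−0.20). The falls in KARPAS-422 and HT held whichever array was left out and under both scalings, but the mean over all PFKP probe sets was 0.25 in KARPAS-422. The PFKP call in SU-DHL-6 was lost without DMSO replicate 1 or GSK126 replicate 2 (−0.29 to −0.23), and that in SU-DHL-10 held only without GSK126 replicate 2 (−0.26 to −0.15). PFKL fell in SU-DHL-10 (1837 and 1670 to 1207 and 1186, −0.54 ± 0.15, adjusted p = 0.00951), lost without DMSO replicate 1 or GSK126 replicate 2 (−0.61 to −0.47). A second PFKL probe set lay at −0.25 there without passing and rose in Pfeiffer (0.36 ± 0.12, adjusted p = 0.035 in a fit of all probe sets). PFKM rose in WSU-DLCL2 (0.32 ± 0.08, adjusted p = 0.00323), not called with arrays at equal medians or without DMSO replicate 2 (0.26 to 0.38).

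ALDOC, the aldolase isoform of brain, rose in 3 lines and fell in 1. Its signals rose from 1163 and 1357 to 2038 and 1720 in WSU-DLCL2 (0.57, adjusted p = 0.000209) and from 914.8 and 989.5 to 1369 and 1478 in SU-DHL-6 (0.57, adjusted p = 0.000622). Both rises held whichever array was left out and under both scalings. In Pfeiffer it went from 806.6 and 823.4 to 1066 and 983.8 (0.32 ± 0.11, adjusted p = 0.0296), lost without either DMSO array or GSK126 replicate 1 (0.27 to 0.38). In KARPAS-422 it fell from 905.1 and 988.8 to 761.2 and 682.3 (−0.38, adjusted p = 0.00792), lost without DMSO replicate 2 (−0.32) or GSK126 replicate 2 (−0.31). ENO2 fell in Pfeiffer from 2138 and 1844 to 1131 and 898.2 (−0.97 ± 0.24, adjusted p = 0.00314, and −0.80 with adjusted p = 0.0577 without GSK126 replicate 2). It fell in KARPAS-422 from 1221 and 1117 to 630.2 and 663.3 (−0.84, adjusted p = 0.00839), lost without DMSO replicate 1 (−0.77) or GSK126 replicate 1 (−0.80). ENO2 lay at −0.41 in WSU-DLCL2, −0.38 in HT and 0.36 in DB without passing.

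Of the enzymes of the shared steps from glucose phosphate to lactate, the set held GPI, ALDOA, TPI1, PGK1, PGAM1, ENO1, PKM and LDHA. They lay on the same side of 0 in each of 5 lines, above it in Pfeiffer and WSU-DLCL2 and below it in KARPAS-422, SU-DHL-6 (−0.14 to −0.05) and OCI-LY-19 (−0.23 to −0.03). These 8 were grouped after their values were seen, so no test was made. GAPDH, the enzyme of another shared step, was tested outside the set and did not follow this pattern throughout. It rose in Pfeiffer (0.27, limma adjusted p = 0.00685). GAPDH was not called in OCI-LY-19 (0.01), KARPAS-422 (−0.02), SU-DHL-6 (−0.08) or WSU-DLCL2 (0.08). It thus took no part in the falls in KARPAS-422, and its value in OCI-LY-19 was not below 0. In KARPAS-422 7 of 8 fell, with fold changes of −0.68 to −0.18 and a median of −0.24. GPI fell from 9622 and 9250 to 5731 and 6037 (−0.68 ± 0.06, adjusted p = 1.17e-09), ENO1 from 20070 and 19650 to 15910 and 16960 (−0.27, adjusted p = 0.00075) and ALDOA from 17980 and 17620 to 14750 and 15300 (−0.24, adjusted p = 0.00283). These 3 falls held whichever array was left out and under both scalings, but the mean of all ENO1 probe sets lay at −0.03 and was not called. The falls of PGAM1 (−0.22) and TPI1 (−0.21) were lost whichever array was left out (−0.26 to −0.17). Those of PKM (6901 and 6942 to 4578 and 6366, −0.36 ± 0.13) and LDHA (−0.24) held only without GSK126 replicate 2 (−0.59 to −0.12 and −0.29 to −0.18). In WSU-DLCL2 6 of 8 rose, with a median of 0.22 over the 8, but GPI, ALDOA, TPI1, PGAM1 and LDHA lay at −0.05 to −0.03 with arrays at equal medians, and the 6 calls were lost. Each of these 6 calls was also lost when some single array was left out (0.11 to 0.33), DMSO replicate 2 among them for all but ALDOA, which lost its call without GSK126 replicate 1. In Pfeiffer the median was 0.16 and ALDOA (0.23 ± 0.06) and PGK1 (0.19 ± 0.07) rose, with ALDOA at −0.05 after quantile normalization. The PGK1 call was lost whichever array was left out (0.18 to 0.21) and the ALDOA call without DMSO replicate 1 or GSK126 replicate 2 (0.16 to 0.29). In the other 7 lines 0 of the 8 were called and medians lay between −0.10 and 0.06. The PGK1 calls depended on the probe set. Of its 6 probe sets, 3 others, above the array median on 40 arrays, fell in SU-DHL-10 (−0.28, −0.49 and −0.55), where the brightest lay at −0.15, and these 3 lay at −0.08 to −0.04 in Pfeiffer. PDK1, the kinase that blocks pyruvate dehydrogenase, fell in SU-DHL-10 from 7449 and 6994 to 4124 and 5001 (−0.67, adjusted p = 4.9e-05), a call that held whichever array was left out and under both scalings. It also fell in KARPAS-422 (−0.30 ± 0.11, adjusted p = 0.0405), a call lost whichever array was left out (−0.33 to −0.27).

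The enzymes and the hypoxia-only genes differed in their medians by line. In KARPAS-422, of the 20 enzymes 1 rose and 12 fell, and of the 11 hypoxia-only genes 3 rose and 3 fell. Their median fold changes were −0.24 and 0.14, a difference of −0.38 ± 0.14 (SD between arrays, n = 2 for each treatment). This SD, here and for the lines below, was taken from the median deviation of the genes on each array from the mean of its 2 arrays. It does not measure the precision of the difference. In WSU-DLCL2 10 enzymes rose and 1 fell while 3 hypoxia-only genes rose and 4 fell, with medians of 0.20 and −0.12 and a difference of 0.32 ± 0.01. With 1 array of WSU-DLCL2 left out, the difference ran from 0.24 to 0.44. The difference thus pointed in opposite directions in these 2 mutant lines, but it shrank to −0.14 in KARPAS-422 after quantile normalization and to 0.09 in WSU-DLCL2 with the mean of all probe sets. In Pfeiffer 5 enzymes rose and 1 fell while 6 hypoxia-only genes rose and 2 fell, with medians of 0.17 and 0.42 and a difference of −0.25 ± 0.10. In SU-DHL-6 1 enzyme rose and 1 fell while 4 hypoxia-only genes rose and 1 fell, with a difference of −0.32 ± 0.12. In SU-DHL-10 0 enzymes rose and 5 fell, 2 hypoxia-only genes rose and 6 fell, and the difference was 0.16 ± 0.09. In the other 5 lines the difference lay between −0.17 and 0.06. The shares of all genes that rose and fell were 6.31% and 3% in HT, 2.5% and 0.618% in DB, 1.97% and 0.44% in OCI-LY-19 and 2.14% and 0.454% in SU-DHL-4. Over all genes, 15.5% rose and 13.4% fell in KARPAS-422, 13.9% and 12.7% in WSU-DLCL2, 14.6% and 9.93% in Pfeiffer, 7.42% and 3.56% in SU-DHL-6, and 11% and 7.16% in SU-DHL-10. These differences between medians are descriptions without a test, since the lists were chosen with results known. Over the set, 8 genes were called only as risen, 10 only as fallen, 11 in both directions in different lines and 2 in no line. The F test called a difference of the response between lines for 23 of 31 genes, 14 enzymes and 9 hypoxia-only genes, against 38.8% of all genes.

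**Figure D4:**
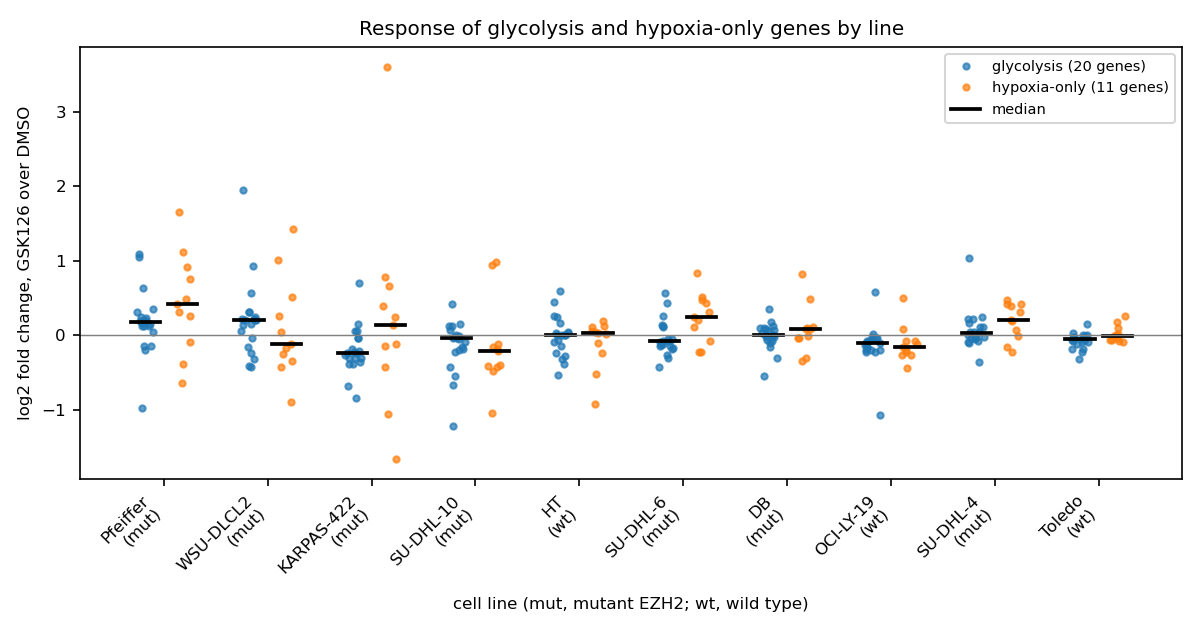
Log2 fold change, GSK126 minus DMSO, of each gene by line, with 20 glycolysis genes in blue and 11 hypoxia-only genes in orange; the black bar is the median of the group. The medians lie at −0.24 and 0.14 in KARPAS-422 and at 0.20 and −0.12 in WSU-DLCL2, where the enzyme rises depended on the scaling, and at −0.05 and −0.01 in Toledo.

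Across lines, with 1 fold change per line in limma, the mean response of the 7 mutant lines was called for 5 of 31 genes, against 9.97% of all genes. P4HA2 was higher by 1.30 ± 0.31 (SE, adjusted p = 0.0242, higher in 7 of 7 mutant lines), PFKFB3 by 0.44 ± 0.12 (adjusted p = 0.0377, 7 of 7), NDRG1 by 0.56 ± 0.16 (adjusted p = 0.0477, 5 of 7) and BNIP3L by 0.35 ± 0.09 (adjusted p = 0.0305, 6 of 7). P4HA1 lay at −0.37 ± 0.11 (adjusted p = 0.0423), higher in 1 of 7. Without Pfeiffer or without WSU-DLCL2 0 of the 31 were called by limma, with 8 at an unadjusted p below 0.05 when all lines were kept, against 26.5% of all genes. Without KARPAS-422, SU-DHL-10 or Toledo 2 were called, without HT, SU-DHL-6 or OCI-LY-19 3, and without DB or SU-DHL-4 4. In the 3 wild type lines 0 were called (0% of all genes, and 0 of 31 against 3.96% of all genes at an unadjusted p below 0.05). The response of mutant and wild type lines differed for 0 genes of the set and 0% of all, with 2 of the set at an unadjusted p below 0.05, against 3.93% of all. Those were P4HA2 (1.41 ± 0.57 higher in mutant lines, limma adjusted p = 0.991) and BNIP3L (0.39 ± 0.17, adjusted p = 0.991). Within the R6, R7 and R8 lines the P4HA2 difference was 2.38, 1.26 and 0.93 and the BNIP3L difference 0.65, 0.13 and 0.61.

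In DMSO, mutant and wild type lines differed for 0 genes of the set after adjustment, against 0.0526% of all genes. NDRG1 was the 1 gene below an unadjusted 0.05, against 7.78% of all genes, with mean log2 levels of 6.51 in mutant and 8.28 in wild type lines (−1.76 ± 0.39, limma adjusted p = 0.33). Its difference was −2.37, −1.76 and −1.05 within the R6, R7 and R8 lines. The slope of the response on the log10 of the growth IC50 was called for 0 genes of the set, against 0.00657% of all. At an unadjusted limma p below 0.05 there were 4, against 10.7% of all genes. They were PFKFB3 (−0.34 ± 0.11 per unit of log10 IC50, adjusted p = 0.301), ENO2 (0.40 ± 0.14, adjusted p = 0.316), NDRG1 (−0.42 ± 0.16, adjusted p = 0.379) and HIF1A (−0.26 ± 0.11, adjusted p = 0.411). A negative slope means a higher response in the lines that GSK126 inhibits at lower concentration.

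Of 15 tested of 22 other glycolysis and gluconeogenesis genes, 3 rose and 0 fell in Pfeiffer, 5 and 2 in WSU-DLCL2, 2 and 3 in KARPAS-422, 2 and 1 in SU-DHL-10, 4 and 0 in HT and 4 and 0 in SU-DHL-6. PFKFB2, the heart isoform of the PFKFB enzymes, rose in 5 lines, by 1.28 ± 0.27 in WSU-DLCL2, 1.62 in SU-DHL-10 and in SU-DHL-6, 1.47 in OCI-LY-19 and 0.99 in DB, and 4 of these held under both scalings, not DB. SLC2A5, a fructose transporter, also rose in 5 lines, by 2.19 ± 0.13 in KARPAS-422, 0.86 in SU-DHL-6, 0.77 in WSU-DLCL2, 0.49 in DB and 0.41 in HT, of which 4 held under both scalings, not HT. BPGM, which makes bisphosphoglycerate, rose in 3 lines, by 0.89 ± 0.09 in KARPAS-422, 0.29 in HT and 0.28 in SU-DHL-6, of which only that in KARPAS-422 held. PGM1, which links glycogen to glycolysis, rose in 5 lines and fell in KARPAS-422 (−0.38), and lay at −0.07 in WSU-DLCL2 with arrays at equal medians. In KARPAS-422 the median of this list was −0.16, beside 0.01 over all genes. Of 14 tested of 17 genes of lactate handling and pyruvate oxidation, 4 rose and 1 fell in Pfeiffer and 6 and 2 in WSU-DLCL2. The counts were 3 and 3 in KARPAS-422, 2 and 2 in SU-DHL-10, 3 and 0 in HT and 2 and 3 in SU-DHL-6. They were 3 and 0 in DB, 1 and 0 in OCI-LY-19 and in SU-DHL-4, and 0 and 0 in Toledo. MPC1, a subunit of the carrier that brings pyruvate into mitochondria, rose in 8 lines, by 0.22 in WSU-DLCL2 to 0.62 ± 0.08 in SU-DHL-10, of which 2 held under both scalings. PDK3, a kinase of the same family as PDK1, rose in 7 lines, by 0.39 in WSU-DLCL2 to 1.19 ± 0.11 in DB, of which 5 held. PDK3 rose in KARPAS-422 (1.06), where PDK1 fell. Whichever array of a line was left out, 4 of 5 PFKFB2 calls, 3 of 5 SLC2A5 calls, 1 of 3 BPGM calls, 5 of 6 PGM1 calls, 2 of 8 MPC1 calls and 5 of 7 PDK3 calls held.

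Of 34 tested of 40 other hypoxia-induced genes, 11 rose and 2 fell in Pfeiffer, 6 and 8 in WSU-DLCL2, 5 and 4 in KARPAS-422, 3 and 6 in SU-DHL-10, 5 and 1 in HT, 6 and 1 in SU-DHL-6, 5 and 0 in DB, 2 and 2 in OCI-LY-19, 2 and 0 in SU-DHL-4 and 0 and 0 in Toledo. In the same order of lines, the shares of all genes called were 24.6%, 26.6%, 28.9%, 18.2%, 9.32%, 11%, 3.12%, 2.41%, 2.6% and 0.164%. ZNF395, a hypoxia-induced zinc finger gene, rose in 6 lines, up to 1.89 ± 0.10 in KARPAS-422, and 5 of these held under both scalings. MXI1, which opposes MYC at its target genes, rose in 6 lines, up to 0.77 ± 0.09 in KARPAS-422, and 4 of these held. The counts that held whichever array was left out were 5 of 6 for ZNF395 and 4 of 6 for MXI1. Both these genes and BNIP3L rose in KARPAS-422 while VEGFA, P4HA1 and most glycolytic enzymes of the set fell there. Genes known as hypoxia-induced thus did not move in 1 direction in that line.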

How the data were processed

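Each of 40 RNA samples was hybridised to 1 Affymetrix array. The authors deposited log2 MAS5 signals per probe set (MAS5 per the submitters' processing notes; version and settings not given in the sources used here). On the linear scale every array had a 2% trimmed mean of 500, so each array is scaled to itself and a shift shared by most genes is not seen. The deposited table gives no detection calls, so a low signal may be background; signal over background and the number of arrays limit the precision. Array medians were 58.9 to 88.7.

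Of 54675 probe sets, 41091 had 1 gene symbol, 1801 several and 11721 none, and 62 were controls; symbols came from GEO's platform annotation, and 41037 matched a RefSeq gene. For each gene, the brightest single-symbol probe set by mean level was taken and analysed as log2(signal + 17.72), the constant being the median over arrays of the 25th percentile. Genes above the array median on at least 2 arrays were tested, 15211 of 19775. A fit over all 20 groups used limma 3.58.1 in R 4.3.3 (eBayes with trend, 20 residual degrees of freedom), two-sided, with Benjamini-Hochberg adjustment over all tested genes; differences between lines used F tests, and comparisons across lines used 1 fold change per line. Tables and figures used Python 3.11.15. Tested on simulated data for KARPAS-422 (15211 genes), the fit recovered 33 of 100 changes of 0.5 (log2) and 62 of 100 of 1, with 8 false calls.

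Members and gene lists were chosen with earlier results of these data known. Array values were given for the gene with the largest called change in each line and for the 6 genes called in most lines; fold changes were also given for the 6 genes with the widest range between lines, for every gene called or at an unadjusted p below 0.05 across lines, and for up to 4 genes of each other list called in most lines. The remaining members are given by counts, ranges and their calls. Alternatives were a pseudocount of 1, no filter, quantile normalization, equal medians, the mean of all probe sets and a replicate block. Further ones were each line fitted alone, the R tag as a block, and each array or line left out. Other probe sets of P4HA2, PFKFB4, VEGFA and BNIP3L were added as alternatives after seeing the data.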

Additional observations from a re-analysis of the deposited data

Results flagged for a closer look

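In 5 of 62 groups of 7 mutant lines (the response and the DMSO level of each of 31 genes), 1 line lay apart from the rest by Dixon's test, where chance gives about 1 in 20 groups. HK1 responded by 1.09 in Pfeiffer, and GPI by −0.68 in KARPAS-422. ALDOC had a DMSO log2 level of 12.34 in SU-DHL-10, PFKFB4 one of 11.54 in SU-DHL-10, and BNIP3 one of 4.77 in KARPAS-422.

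The response to GSK126 differed between lines by limma's F test for 23 genes. Among hypoxia-only genes the adjusted p was 1.82e-09 for P4HA1, 1.15e-08 for HIF1A, 2.57e-08 for VEGFA, 5.02e-07 for BNIP3L, 3.42e-06 for P4HA2, 9.9e-05 for KDM3A, 0.000603 for EGLN1, 0.00286 for ANKRD37 and 0.0257 for NDRG1. Among enzymes and glucose-handling genes it was 6.27e-07 for GPI, 1.43e-05 for PFKFB4, 1.95e-05 for ALDOC, 0.00062 for ENO1, 0.00173 for PDK1, 0.00178 for ALDOA and 0.00561 for PFKP. It was 0.00976 for PFKM, 0.00991 for HK1, 0.0189 for PGK1, 0.0241 for ENO2, 0.0306 for TPI1, 0.0366 for LDHA and 0.0492 for PFKFB3.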

How the results depend on the processing

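Counts are called genes of the 31, and differences are enzyme minus hypoxia-only medians. With a pseudocount of 1, SU-DHL-4 had 1 call. With no filter, 3 genes were called in the mutant mean. With quantile normalization the differences were −0.37 in Pfeiffer, 0.30 in WSU-DLCL2 and −0.14 in KARPAS-422, 2 genes were called in DB and 2 in the mutant mean, and ALDOA in Pfeiffer lay at −0.05. At equal medians 0 were called in DB, 1 in OCI-LY-19 and 1 in SU-DHL-4. In WSU-DLCL2 GPI then lay at −0.05, TPI1 at −0.05, PGAM1 at −0.04, LDHA at −0.04, ALDOA at −0.03, PGM1 at −0.07 and MPC1 at −0.03. With the mean of all probe sets the differences were 0.09 in WSU-DLCL2, 0.07 in SU-DHL-10, −0.03 in HT, 0.01 in DB and −0.01 in OCI-LY-19, and 3 genes were called in each of SU-DHL-6, DB and the mutant mean. Called values that crossed 0 there were ANKRD37 in Pfeiffer (−0.03), and P4HA1 (0.13), HK2 (0.19) and KDM3A (0.11) in WSU-DLCL2. Others were HK2 (0.00) and PFKP (0.25) in KARPAS-422, P4HA1 (0.06), HK2 (0.23) and KDM3A (0.02) in SU-DHL-10, and P4HA1 (0.13) in OCI-LY-19. Of the probe sets added after seeing the data, PFKFB4 lay at −0.20 in KARPAS-422 and VEGFA at 0.35 in Pfeiffer. Same-numbered arrays did not deviate together (r of −0.04 to 0.07, 0 of 10 lines over 0.1), so the signals showed no pairing by number. Whether same-numbered cultures were paired is not stated. With a replicate block 2 genes were called in DB, 0 in OCI-LY-19 and 0 in SU-DHL-4. With each line fitted alone, 7 were called in SU-DHL-10, 4 in HT, 2 in SU-DHL-6, 3 in DB, 0 in OCI-LY-19 and 1 in SU-DHL-4. Leaving out 1 array, or 1 line for the mutant mean, gave 10 to 13 calls in Pfeiffer, 11 to 15 in WSU-DLCL2, 9 to 12 in KARPAS-422, 3 to 7 in SU-DHL-10, 2 in HT, 3 to 6 in SU-DHL-6, 0 to 1 in DB, 0 to 2 in OCI-LY-19, 0 to 1 in SU-DHL-4 and 0 to 4 in the mutant mean. The differences then ran from −0.36 to −0.13 in Pfeiffer, 0.24 to 0.44 in WSU-DLCL2, −0.46 to −0.21 in KARPAS-422, 0.12 to 0.18 in SU-DHL-10, −0.01 to 0.05 in HT, −0.46 to −0.24 in SU-DHL-6, −0.10 to 0.04 in DB, 0.06 to 0.12 in OCI-LY-19, −0.24 to −0.15 in SU-DHL-4 and −0.07 to 0.02 in Toledo. Except where a value itself shows it, the cause of these changes was not tested. Over all single-gene results and settings, 1829 values stayed on the same side of the threshold. These include values that changed sign without a call in either setting. Another 426 kept the direction but no longer passed, 10 newly passed, and 20 crossed 0 with a call in at least 1 of the settings compared.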

Other observations

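Downstream of pyruvate, the citric acid cycle had its most calls in KARPAS-422, which also had the most calls over all genes. The share of all genes called was 28.9% in KARPAS-422, 24.6% in Pfeiffer, 26.6% in WSU-DLCL2 and 18.2% in SU-DHL-10. Of 13 tested of 16 citric acid cycle genes, 1 rose and 7 fell in KARPAS-422 (median log2 fold change −0.21, beside 0.01 over all genes), 1 and 3 in Pfeiffer, 2 and 2 in WSU-DLCL2 and 0 and 1 in SU-DHL-10, and limma called 0 in the other 6 lines. SUCLA2, a succinyl-CoA ligase subunit, fell in 4 lines, by −0.21 to −0.30, and 3 of these held under both scalings. IDH3A, a subunit of the isocitrate dehydrogenase of the cycle, fell in 3 lines, most in Pfeiffer (−0.62 ± 0.07), and 2 of these held. Whichever array was left out, 1 of 4 SUCLA2 calls and 2 of 3 IDH3A calls held. Of 9 tested of 10 pentose phosphate genes, 2 rose and 3 fell in Pfeiffer, 1 and 4 in KARPAS-422 and 1 and 2 in WSU-DLCL2. PGLS, the lactonase of that pathway, rose in 3 lines, of which 0 were called with arrays at equal medians.

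Of 13 tested of 15 other genes of the HIF pathway, 4 rose and 2 fell in Pfeiffer, 2 and 2 in WSU-DLCL2, 1 and 2 in KARPAS-422, 0 and 1 in SU-DHL-10 and 0 and 1 in HT. The shares of all genes called, for this list and the next, were 24.6% in Pfeiffer, 26.6% in WSU-DLCL2 and 28.9% in KARPAS-422. They were 18.2% in SU-DHL-10, 9.32% in HT, 11% in SU-DHL-6 and 3.12% in DB. RBX1, a subunit of the ligase that marks HIF-1 for degradation, rose in WSU-DLCL2 (0.82 ± 0.06) and fell in KARPAS-422 (−0.20) and SU-DHL-10 (−0.21). Of 9 tested of 12 glucose-sensing and MYC regulators, 3 rose in WSU-DLCL2, 2 rose in each of Pfeiffer, KARPAS-422, SU-DHL-10 and HT, 1 rose in SU-DHL-6 and in DB, and 1 fell in Pfeiffer and in SU-DHL-10. TXNIP, which limits glucose uptake, held its 7 rises under both scalings and 6 of them whichever array was left out.

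Pairwise correlations over the 10 lines are a description, and the points share arrays and scaling. The median r of the response was 0.33 between enzymes, 0.21 between hypoxia-only genes, 0.13 between the groups and 0.01 over all genes. The closest pairs were ALDOA with LDHA (0.98) and PGAM1 with ENO1 (0.95). In DMSO the medians were 0.19, 0.10, 0.05 and 0.00, and the closest pair was ALDOC with PFKFB4 (0.92).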
